A study of Homo sapiens with 9 samples.

Results

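Homologous recombination repairs a broken chromosome by copying an intact sister, and the Fanconi anaemia pathway unhooks crosslinks between DNA strands and passes the resulting break to recombination. The 38 genes described here encode the core of both. Members were matched by gene symbol, with no threshold on their values, to a list of BRCA1 and BRCA2 complex members, recombinase paralogs and cofactors, Fanconi proteins, end resection factors, RecQ helicases and Holliday junction nucleases. All 38 were found once each among the 59609 genes of the deposited table, and all 38 passed the filter on low counts that left 16964 genes for testing.

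RNA was sequenced from SUIT2, an established cell line of human pancreatic cancer, to ask what exposure to interferon beta does to its transcripts after 6 or 24 h. The 9 libraries form 3 groups of 3. Cells of the 24 h group received fresh medium with human interferon beta at 100 U/mL for 24 h, cells of the 6 h group received the same dose for 6 h, and the third group is labelled control treated. All cultures were seeded at 500000 cells per well 24 h before treatment and carry no engineered allele by their labels. Control cultures have no duration in the labels, which carry the interferon protocol text on them too, so a change of medium or time in culture cannot be told apart from interferon. They do not say that the libraries of a group came from separate cultures. The p-values therefore reflect no more than how these samples spread, and that spread may be technical. In a bulk sample, fewer cells in a state and less RNA per cell also cannot be told apart.

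As background, recombination starts when nucleases trim the broken ends to single strands. BRCA1 with its partner BARD1 promotes this step, and PALB2 then bridges BRCA1 to BRCA2, which loads the recombinase filament. Paralogs of the recombinase and the translocases of the RAD54 family shape the filament and its search for a template, and helicases and nucleases take the joined molecules apart at the end. In the Fanconi pathway a multiprotein core complex attaches ubiquitin to FANCD2 and FANCI with the help of the conjugating enzyme UBE2T, and the marked pair recruits nucleases to the crosslink. Most of these genes are transcribed mainly in S and G2 phase, when a sister chromatid is present, and inherited loss of BRCA1, BRCA2 or PALB2 raises the risk of pancreatic cancer.

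Total estimated counts were 40384407, 25270387 and 34288172 in the 24 h libraries, 16799278, 23447549 and 37420457 in the 6 h libraries and 16456647, 19632741 and 15101734 in the control libraries, so the control libraries were the shallowest on average. Levels below are CPM, counts relative to a library's scaled total, after TMM scaling, a normalization that sets the bulk of genes equal between libraries. All 15 genes of an interferon response list were higher in both treated groups than in control, with median log2 fold changes of 4.56 at 24 h and 6.26 at 6 h. All 10 ductal epithelial markers were tested, and their summed level was 5710.0 to 5839.1 CPM at 24 h, 5602.2 to 5919.7 CPM at 6 h and 5043.8 to 5108.4 CPM in control. Of 10 leukocyte markers 2 were tested, PTPRC, CD3E, CD3D, MS4A1 and NKG7 had no count in any library, and the summed level of 317.26 to 341.23 CPM at 24 h, 253.73 to 267.32 CPM at 6 h and 224.36 to 228.77 CPM in control was nearly all LYZ, the lysozyme gene. Of 10 fibroblast and endothelial markers 2 were tested, summing to 2.21 to 2.56 CPM at 24 h, 2.31 to 2.40 CPM at 6 h and 1.43 to 2.40 CPM in control, with DCN and KDR at 0. Of 7 acinar markers 2 were tested, summing to 0.95 to 1.04 CPM at 24 h, 0.76 to 0.97 CPM at 6 h and 0.66 to 0.96 CPM in control, with CPA1 and PNLIP at 0.

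The scaling sets where zero lies, and it matters for small changes. With TMM the median log2 fold change of all tested genes was 0.0048 for 24 h against control, -0.0053 for 6 h against control and -0.019 for 24 h against 6 h. In the normalized table that the authors deposited the same medians were 0.37, 0.13 and 0.22, and with library size alone they were 0.082, -0.15 and 0.20. The factors of the deposited table did not bring the libraries to equal totals. Control library 2 and 6 h library 2 shared a factor of 0.0476, though their totals were 19632741 and 23447549. In 6 h libraries 1 and 3 the factors were 0.0503 and 0.0337, for totals of 16799278 and 37420457. Signs and calls that changed in that table carry this limit. Each scaling multiplies all genes of a library by the same factor, so it shifts the median and the members nearly alike. Measured against that median, the 28, 19 and 30 members called in these comparisons were therefore almost bound to keep their signs. They kept them under library size, under median-of-ratios scaling and in the deposited table, which is no test of the calls. Directions below are those with TMM, and a member is named beside its value where a sign turned and either fit called it. Values called in neither fit turned sign in 9 cases with library size alone and in 23 in the deposited table. Those of the deposited table were 3 at 24 h (FANCE, FANCF and WRN), 15 at 6 h, among them BRCA1, FANCL, FANCD2 and MRE11, and 5 between 24 h and 6 h (BARD1, BRCA2, WRN, RECQL4 and EME1). No direction should be read from such values. Without a change of sign, 9 calls were lost with library size alone and 15 in the deposited table. With library size these were RECQL4 and EME1 at 24 h, PALB2, RAD51AP1, FANCF and GEN1 at 6 h, and RAD52, FANCF and MUS81 between 24 h and 6 h. In the deposited table they were PALB2, RAD51AP1, FANCE, FANCF, FANCI, RBBP8, BLM and GEN1 at 6 h, and RAD52, FANCA, FANCF, FANCG, FANCM, RAD50 and GEN1 between 24 h and 6 h. A call lost there does not always mean a smaller change. At 6 h the values of PALB2, RAD51AP1, FANCF, FANCI and GEN1 were larger there than with TMM. Those of FANCE, RBBP8 and BLM were smaller in size.

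At 24 h, 22 of the 38 genes were higher than in control, 6 were lower and 10 did not pass (edgeR's quasi-likelihood test, adjusted p under 0.05 over all genes). Over all genes tested 24.7% were called higher and 25.3% lower in this comparison, 50.0% in either direction. The median log2 fold change of the 38 genes was 0.16, with values of -0.39 to 0.73. The genes that rose most were RAD51B, EXO1, BRIP1, BRCA2 and FANCL, and those that fell most were RAD52, MUS81 and FANCM. With library size alone the split was 26 higher and 4 lower. In the deposited table it was 29 higher and 0 lower.

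At 6 h, 11 genes were higher than in control, 8 were lower and 19 did not pass, against 17.5% of all genes called higher, 15.4% called lower and 32.9% in either direction. The median was -0.055, close to that of all genes. BRIP1 and NBN stood apart from the rest with log2 fold changes of 1.56 and 0.99, followed by BRCA2 at 0.71, and no fall exceeded that of FANCE at -0.27. This split depended on the scaling, with 6 higher and 21 lower under library size alone and 6 higher and 0 lower in the deposited table. The 6 h libraries also differed more among themselves. The mean chi-square per gene, a measure of how far the counts of 2 libraries differ, was 3.77 to 5.65 at 6 h, 2.25 to 3.29 at 24 h and 1.6 to 2.22 in control. It grows with depth too. The fit pooled 1 spread over the groups, and with the 6 h and control libraries alone 9 genes were higher and 5 lower.

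Between the treated groups 21 genes were higher at 24 h than at 6 h, 9 were lower and 8 did not pass, against 26.6% of all genes called higher, 30.6% called lower and 57.2% in either direction. The median was 0.14. EXO1 and FANCL rose most, and NBN and BRIP1 fell most. With library size alone the split was 28 higher and 5 lower, and in the deposited table it was 19 higher and 2 lower. The comparisons against control share the same 3 control libraries, so their values for a gene are not independent.

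**Figure D1:**
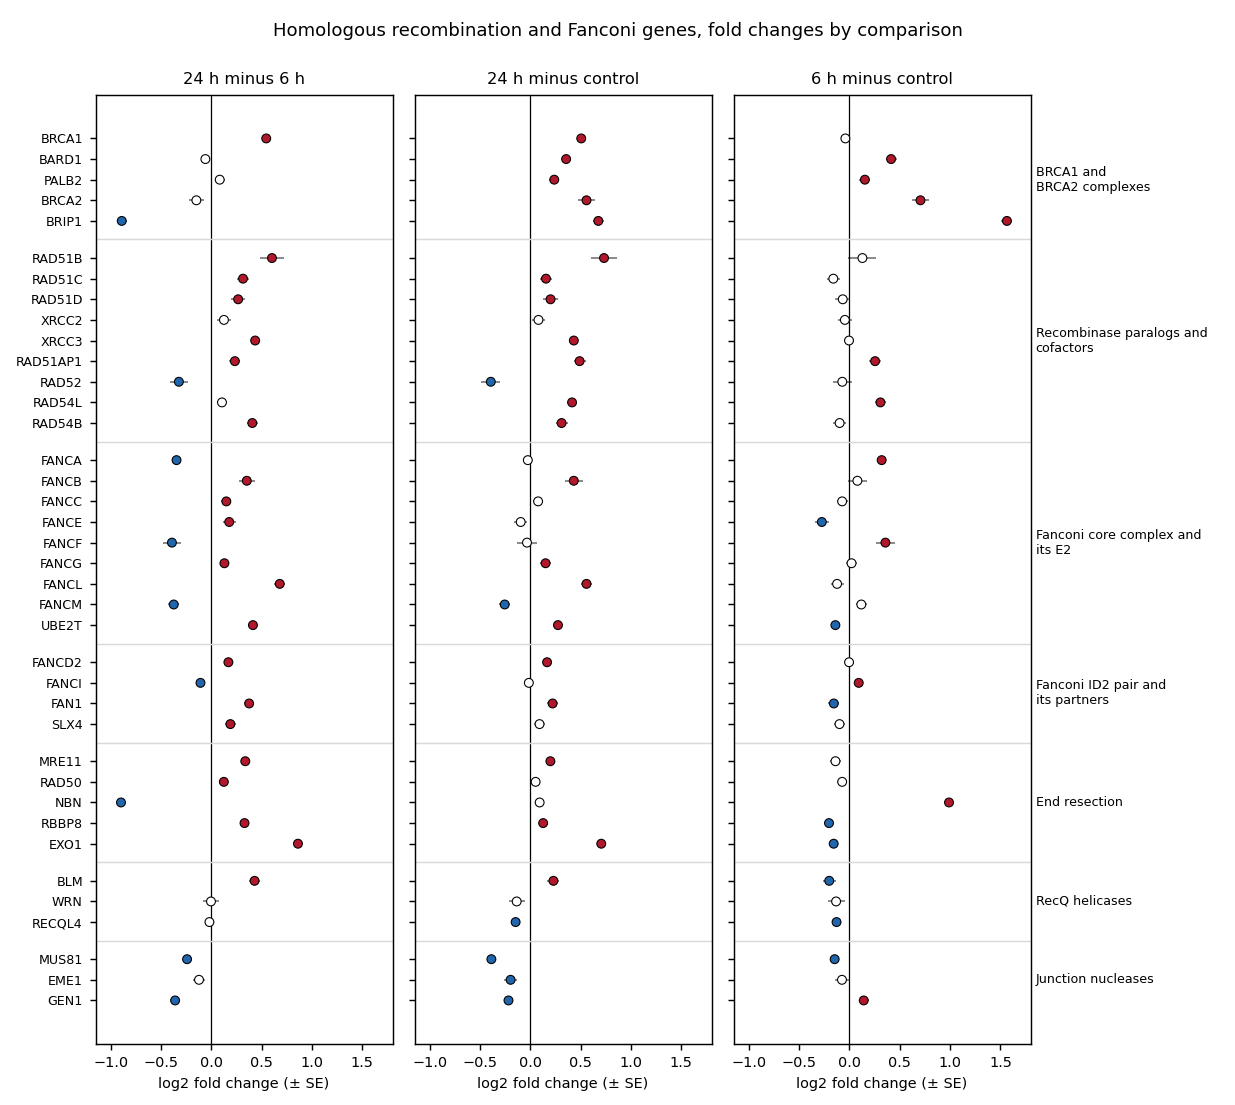
Log2 fold change of each of the 38 genes (points, horizontal bars ± SE, x axis on the log2 scale) for 24 h minus 6 h, 24 h minus control and 6 h minus control, grouped by role from top to bottom; red points were called higher, blue points lower and open points did not pass. BRIP1 at 1.56 and NBN at 0.99 lie far right of the others at 6 h, while at 24 h EXO1 at 0.70 and RAD51B at 0.73 lead and all 3 junction nucleases lie left of 0.

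The promoters of genes that moved differently are printed next, so that their sequence can be set beside their values. Each is the stretch of 250 bases before the RefSeq start site (GRCh38.p14), 5′ to 3′ on the gene's own strand. Which start sites these cells use was not examined, and a gene may have others. The stretches of BRCA2 and MUS81 lie inside the deposited spans of these genes, which start at 32315086 and 65857126. Those of RAD51AP1 and EXO1 lie partly inside spans that start at 4538798 and 241847967. BRIP1 and BRCA2 were higher at both times, RAD51AP1 rose in all 3 comparisons, BRCA1 and EXO1 were higher at 24 h and not at 6 h, and MUS81 was lower in all 3. They lie at chr17:61863529-61863778 on the minus strand for BRIP1, chr13:32315258-32315507 on the plus strand for BRCA2, chr12:4538640-4538889 on the plus strand for RAD51AP1, chr17:43170328-43170577 on the minus strand for BRCA1, chr1:241847954-241848203 on the plus strand for EXO1 and chr11:65860183-65860432 on the plus strand for MUS81. Capitals mark matches, on either strand, to any of 5 searched words: the core of the interferon-stimulated response element (GAAANNGAA), the GAS element bound by STAT dimers (TTCNNNGAA), E2F words (TTTCCCGC, TTTCGCGC, TTTGCCGC or TTTGGCGC), CHR words of cell cycle genes (TTTGAA or TTCGAA) and the CCAAT box (CCAAT).
BRIP1: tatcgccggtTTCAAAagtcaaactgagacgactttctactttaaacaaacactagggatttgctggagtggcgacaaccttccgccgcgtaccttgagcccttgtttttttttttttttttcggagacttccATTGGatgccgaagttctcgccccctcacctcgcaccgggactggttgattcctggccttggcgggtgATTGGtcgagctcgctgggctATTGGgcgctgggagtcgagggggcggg
BRCA2: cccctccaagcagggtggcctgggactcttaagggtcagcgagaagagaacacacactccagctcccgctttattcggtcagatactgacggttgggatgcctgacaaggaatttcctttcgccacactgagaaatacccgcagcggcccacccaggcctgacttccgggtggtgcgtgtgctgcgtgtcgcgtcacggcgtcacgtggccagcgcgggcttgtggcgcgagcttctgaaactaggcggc
RAD51AP1: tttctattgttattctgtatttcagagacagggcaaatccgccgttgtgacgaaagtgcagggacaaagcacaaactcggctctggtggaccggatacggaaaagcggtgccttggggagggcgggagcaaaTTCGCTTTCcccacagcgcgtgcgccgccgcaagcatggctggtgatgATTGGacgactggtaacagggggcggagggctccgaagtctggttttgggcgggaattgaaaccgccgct
BRCA1: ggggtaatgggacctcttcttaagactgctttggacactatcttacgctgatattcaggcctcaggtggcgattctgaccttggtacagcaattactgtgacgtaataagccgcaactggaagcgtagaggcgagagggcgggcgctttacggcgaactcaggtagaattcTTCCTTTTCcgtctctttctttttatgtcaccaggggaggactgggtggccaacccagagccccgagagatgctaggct
EXO1: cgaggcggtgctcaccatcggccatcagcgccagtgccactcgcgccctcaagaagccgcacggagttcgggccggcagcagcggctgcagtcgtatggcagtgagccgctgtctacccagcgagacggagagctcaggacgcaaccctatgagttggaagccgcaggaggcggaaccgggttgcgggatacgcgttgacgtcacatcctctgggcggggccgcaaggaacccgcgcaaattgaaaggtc
MUS81: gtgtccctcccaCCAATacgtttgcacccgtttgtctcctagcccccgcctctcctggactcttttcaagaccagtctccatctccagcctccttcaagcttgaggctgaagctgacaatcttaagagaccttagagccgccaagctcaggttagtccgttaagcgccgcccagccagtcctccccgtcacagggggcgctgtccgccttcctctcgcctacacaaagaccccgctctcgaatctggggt

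RefSeq windows of 300 bases, from 250 before to 50 after the start, were found for 33 of the 38 genes. The interferon response core stood in 4 of 33 (12.1%), against 6.59% of the windows of tested genes and 8.29% of all 27305 windows. Those 4 genes were BRCA1, RAD51AP1, FANCM and FANCE, of which RAD51AP1 was higher at 6 h, FANCE was lower and BRCA1 and FANCM did not pass. In BRCA1 the word began 79 bases before the start site used here, and in RAD51AP1 118 bases before its own. The BRCA1 start used lies just beyond the outer end of the gene's deposited span, 43044295 to 43170246. Windows at other BRCA1 starts were not searched, so the word is not shown to lie in the main promoter. An E2F word stood in 6 of 33 (18.2%), against 5.50% of tested genes and 3.33% of all windows, namely in EXO1, FANCA, FANCC, FANCD2, GEN1 and XRCC2. At 24 h EXO1 and FANCD2 were higher than in control, GEN1 was lower, and FANCA, FANCC and XRCC2 did not pass. Among members higher at 24 h the word stood in 2 of 21 windows (9.52%), against 5.79% for all tested genes higher then. The word of EXO1 began 4 bases past the start site, outside the stretch printed above. A GAS element stood in 3 of 33 (9.09%, against 6.20% of tested genes and 7.88% of all windows), a CHR word in 3 (9.09%, against 11.1% and 16.6%) and a CCAAT box in 12 (36.4%, against 36.9% and 35.7%). The BRIP1 stretch held a CHR word and 3 CCAAT boxes, the BRCA2 stretch held none of the words, and the MUS81 stretch held 1 CCAAT box. A match is a stretch of letters and not evidence of binding, and in FANCM the CCAAT box and the interferon response core shared their end base.

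Counts by role and by list below are to be read beside the shares over all genes. Those were 24.7% higher and 25.3% lower at 24 h, 17.5% and 15.4% at 6 h, and 26.6% and 30.6% between 24 h and 6 h. The 5 genes of the BRCA1 and BRCA2 complexes were higher at 24 h than in control without exception, and 4 of them were also higher at 6 h. Their summed level was 294.91 to 305.81 CPM at 24 h, 311.44 to 354.37 CPM at 6 h and 212.1 to 214.22 CPM in control. BRIP1 (chromosome 17, 61679139 to 61863529) encodes a helicase that binds BRCA1 and is also known as FANCJ. It had 71.5, 66.4 and 65.1 CPM in the 24 h libraries, 120.2, 119.9 and 135 CPM in the 6 h libraries and 42.6, 42.0 and 42.8 CPM in the control libraries. The 3 groups did not overlap, with 6 h highest and control lowest. The log2 fold change was 0.67 (SE 0.055, edgeR adjusted p = 6.21e-08) at 24 h and 1.56 (SE 0.054, adjusted p = 1.78e-12) at 6 h. It was -0.89 between 24 h and 6 h (SE 0.048, edgeR adjusted p = 3.31e-10).

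BRCA2 (chromosome 13, 32315086 to 32400269), the loader of the recombinase, had 52.7, 55.4 and 49.4 CPM at 24 h, 53.2, 52.2 and 66.6 CPM at 6 h and 35.7, 37.3 and 33.6 CPM in control. Every treated library lay above every control library, and 6 h library 3 lay above the other treated libraries. The log2 fold change was 0.56 (SE 0.083, edgeR adjusted p = 4.42e-05) at 24 h and 0.71 (SE 0.085, adjusted p = 8.62e-06) at 6 h. The difference between 24 h and 6 h, -0.15 (SE 0.075), did not pass, but it did without 6 h library 1 or without 6 h library 2, at -0.22 to -0.20. BARD1 (chromosome 2, 214725646 to 214809684), the obligate partner of BRCA1 in its ubiquitin ligase, had 34.0, 35.3 and 32.8 CPM at 24 h, 33.4, 35.8 and 36.4 CPM at 6 h and 26.6, 27.8 and 25.1 CPM in control. The treated libraries overlapped each other and all lay above control. BARD1 rose by 0.36 (SE 0.053, edgeR adjusted p = 4.41e-05) at 24 h and by 0.41 (SE 0.055, adjusted p = 2.38e-05) at 6 h. Its difference of -0.059 between 24 h and 6 h did not pass, and with library size alone it turned to 0.16 and passed.

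PALB2, which joins BRCA1 to BRCA2, moved least in this group, with log2 fold changes of 0.24 (SE 0.052) at 24 h and 0.15 (SE 0.054) at 6 h. Its call at 6 h was lost when any 1 of 6 libraries was left out (24 h libraries 1 and 2, 6 h libraries 1 and 3, control libraries 2 and 3), with values of 0.11 to 0.17. BRCA1 itself (chromosome 17, 43044295 to 43170246) followed another course. It had 115, 116 and 117 CPM at 24 h, 76.0, 75.2 and 86.0 CPM at 6 h and 79.9, 82.0 and 83.5 CPM in control. The 24 h libraries lay above all others, and the 6 h libraries lay on both sides of control. The log2 fold change was 0.51 (SE 0.045, edgeR adjusted p = 1.77e-07) at 24 h and -0.040 (SE 0.047, adjusted p = 0.578) at 6 h, and 0.55 (SE 0.044, adjusted p = 4.13e-08) between 24 h and 6 h. Without 6 h library 3, the highest of its group, BRCA1 was called lower at 6 h, at -0.11. NBR2, a noncoding gene that overlaps BRCA1 on the opposite strand, averaged 3.11 CPM and stood at 0.91 at 24 h. Whether counting used strand is not stated in the labels, so here and below reads shared by overlapping genes cannot be told apart.

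**Figure D2:**
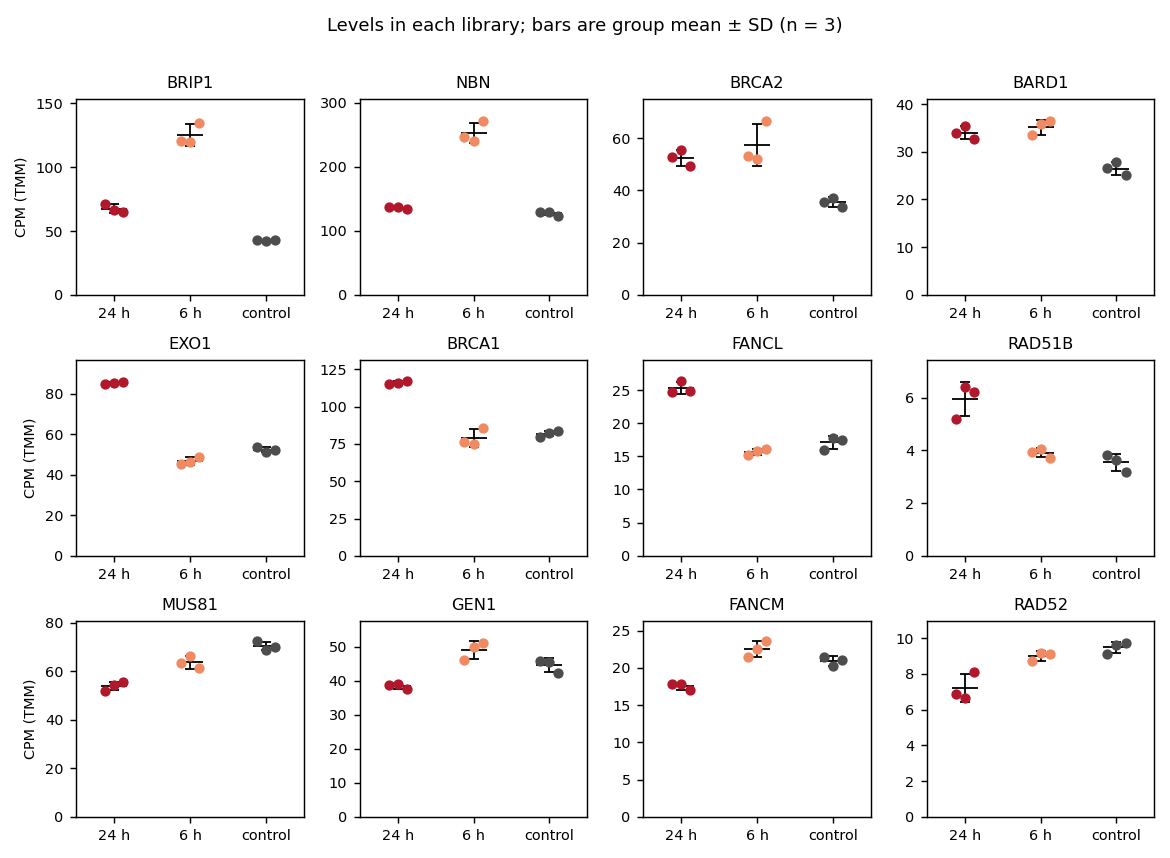
Level of 12 of the genes in each library (points; CPM after TMM scaling, linear axes from 0), with bars at the group mean ± SD (n = 3), for 24 h, 6 h and control from left to right. BRIP1 and NBN peak at 6 h, EXO1, BRCA1, FANCL and RAD51B are highest at 24 h, and MUS81 and RAD52 are lowest at 24 h.

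Among the 9 recombinase paralogs and cofactors, 7 rose at 24 h over control, 1 fell and 1 did not pass. At 6 h the split was 2 higher, 0 lower and 7 without a call. Their summed level was 305.23 to 307.7 CPM at 24 h, 251.32 to 258.17 CPM at 6 h and 237.33 to 246.57 CPM in control. RAD51B (chromosome 14, 67819779 to 68730219), a paralog in the BCDX2 complex, had the lowest level per length of the 38 genes, and in each library it had 5.21, 6.41 and 6.22 CPM at 24 h, 3.96, 4.07 and 3.72 CPM at 6 h and 3.84, 3.62 and 3.19 CPM in control. The 24 h libraries lay above all others, while the 6 h and control libraries overlapped. RAD51B rose by 0.73 (SE 0.13, edgeR adjusted p = 0.000212) at 24 h, against 0.13 (SE 0.14, adjusted p = 0.546) at 6 h.

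Of the other paralogs, 3 were also higher at 24 h. XRCC3, which acts with RAD51C late in the reaction, rose by 0.43 (SE 0.034) at 24 h, with 84.4 to 85.8 CPM at 24 h, 61.4 to 64.1 CPM at 6 h and 62.1 to 64.3 CPM in control. RAD51C rose by 0.15 (SE 0.061) and RAD51D by 0.20 (SE 0.070) at 24 h. Neither call held with each library left out in turn. That of RAD51C was lost without any 24 h library and without control library 1 or 3, at 0.11 to 0.17, and that of RAD51D without 24 h library 3 or control library 2, at 0.13 to 0.14. These 2 genes differed between 24 h and 6 h by 0.31 (SE 0.059) and 0.27 (SE 0.068), calls that held with each library left out in turn. XRCC2, the remaining paralog, passed in no comparison with all libraries, at 0.080 (SE 0.069) at 24 h and -0.045 (SE 0.073) at 6 h. Without 6 h library 3 it was higher at 24 h than at 6 h, at 0.21.

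Among the cofactors, RAD51AP1, which stimulates strand pairing, was the single member called higher in all 3 comparisons with TMM. It had 55.2, 56.2 and 51.4 CPM at 24 h, 44.8, 43.5 and 49.1 CPM at 6 h and 39.1, 41.1 and 35.2 CPM in control, and the groups did not overlap. Its log2 fold changes were 0.49 (SE 0.059) at 24 h, 0.26 (SE 0.063) at 6 h and 0.23 (SE 0.056) between 24 h and 6 h. The 6 h call was lost with library size alone, at 0.12, and in the deposited table, at 0.41. RAD54L, the translocase that drives strand exchange, rose by 0.41 (SE 0.051) at 24 h and 0.31 (SE 0.053) at 6 h. Its relative RAD54B rose by 0.31 (SE 0.059) at 24 h and stood at -0.097 (SE 0.064) at 6 h. FSBP, which overlaps RAD54B on the same strand, averaged 4.10 CPM and stood at 1.32 at 24 h.

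RAD52 (chromosome 12, 911736 to 990054), an annealing protein that backs up BRCA2, went the other way. It had 6.86, 6.67 and 8.09 CPM at 24 h, 8.70, 9.20 and 9.12 CPM at 6 h and 9.11, 9.62 and 9.71 CPM in control. All 24 h libraries lay below all others, and the 6 h and control libraries overlapped. RAD52 fell by 0.39 on the log2 scale (SE 0.094, edgeR adjusted p = 0.0026) at 24 h, against 0.035 without a call in the deposited table. Between 24 h and 6 h it was -0.32 (SE 0.091, edgeR adjusted p = 0.00672), and at 6 h it was -0.071 (SE 0.096, adjusted p = 0.632).

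The Fanconi core complex and its ubiquitin conjugating enzyme split in direction. Of 9 genes, 4 passed as higher at 24 h, 1 as lower and 4 did not, while at 6 h the split was 2 higher, 2 lower and 5 without a call. Genes at large also went both ways, with 24.7% higher and 25.3% lower at 24 h and 17.5% and 15.4% at 6 h. All 9 passed between 24 h and 6 h, 6 of them higher and 3 lower at 24 h. Their summed level was 247.18 to 253.86 CPM at 24 h, 234.85 to 240.42 CPM at 6 h and 229.52 to 230.27 CPM in control. FANCL (chromosome 2, 58159243 to 58241373), the ubiquitin ligase subunit, had 24.7, 26.3 and 24.9 CPM at 24 h, 15.2, 15.8 and 16.1 CPM at 6 h and 16.0, 17.8 and 17.5 CPM in control. The 24 h libraries stood clear of the rest. FANCL rose by 0.56 (SE 0.058, edgeR adjusted p = 9.5e-07) at 24 h and stood at -0.12 (SE 0.064, adjusted p = 0.166) at 6 h and 0.68 (SE 0.055, adjusted p = 4.84e-08) between 24 h and 6 h. VRK2, which overlaps FANCL on the other strand at 12.4 CPM, stood at -0.037 at 24 h and 0.48 at 6 h.

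UBE2T, the conjugating enzyme that works with FANCL, was higher at 24 h by 0.27 (SE 0.041) and lower at 6 h, at -0.14 (SE 0.044). The 6 h call was lost without 6 h library 1 or 3 or control library 1 or 2, at -0.13 to -0.11, and in the deposited table the value turned to 0.031. FANCB, a subunit that holds the catalytic module together, rose by 0.43 (SE 0.086) at 24 h, with 10.7 to 11.4 CPM at 24 h, 8.13 to 9.21 CPM at 6 h and 7.50 to 8.71 CPM in control. FANCG, its neighbour in the complex, was higher by 0.15 (SE 0.051) at 24 h. That call was lost without 24 h library 1 or 3 or control library 2, at 0.13 to 0.15, and its difference of 0.13 between 24 h and 6 h, where the groups overlapped, was lost without those 24 h libraries or 6 h library 1 or 3, at 0.073 to 0.13. FANCC passed in 1 comparison, higher at 24 h than at 6 h by 0.15 (SE 0.049), and lost it without 24 h library 2 or 3 or 6 h library 2, at 0.12 to 0.14.

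FANCE (chromosome 6, 35452338 to 35467103), which binds FANCD2, had 16.5, 16.5 and 16.1 CPM at 24 h, 14.9, 14.7 and 14.1 CPM at 6 h and 15.8, 18.1 and 18.6 CPM in control. The 6 h libraries lay below all others, and the 24 h libraries lay within the range of control. FANCE was lower at 6 h, at -0.27 (SE 0.069, edgeR adjusted p = 0.00617), and stood at -0.096 (SE 0.065, adjusted p = 0.236) at 24 h. Its difference of 0.18 (SE 0.063, edgeR adjusted p = 0.0262) between 24 h and 6 h was lost without 24 h library 1 or 2 or 6 h library 3, at 0.15 to 0.17. FANCF (chromosome 11, 22622533 to 22625824), the adaptor of the complex, ran opposite to FANCE with 7.85, 8.11 and 9.53 CPM at 24 h, 11.4, 10.6 and 11.4 CPM at 6 h and 8.33, 8.56 and 9.26 CPM in control. FANCF was higher at 6 h by 0.36 (SE 0.097, edgeR adjusted p = 0.00975), and -0.39 (SE 0.089, adjusted p = 0.00146) separated 24 h from 6 h, with -0.034 at 24 h against control. Both calls were lost with library size alone, at 0.22 and -0.17, and in the deposited table, at 0.47 and -0.11.

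FANCA, a large scaffold of the core, was called in the same comparisons as FANCF. It had 45.9 to 48.2 CPM at 24 h, 58.1 to 61.5 CPM at 6 h and 47.4 to 48.6 CPM in control, with log2 fold changes of -0.025 (SE 0.039) at 24 h and 0.32 (SE 0.040) at 6 h. The 24 h value turned to 0.41, and passed, in the deposited table. ZNF276 overlaps FANCA on the other strand at 21.0 CPM and stood at -0.0046 at 24 h and 0.30 at 6 h. FANCM (chromosome 14, 45135930 to 45200891), the translocase that recognises stalled forks, had 17.8, 17.8 and 17.0 CPM at 24 h, 21.5, 22.6 and 23.6 CPM at 6 h and 21.5, 20.2 and 21.1 CPM in control. Every 24 h library lay below every other library. FANCM was lower at 24 h, at -0.25 (SE 0.056, edgeR adjusted p = 0.00147), against 0.17 without a call in the deposited table. It stood at 0.12 (SE 0.057, adjusted p = 0.133) at 6 h and at -0.37 (SE 0.053, adjusted p = 2.19e-05) between 24 h and 6 h.

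FANCD2 and FANCI, the pair that the core complex marks with ubiquitin, moved little and not together. Of the pair and its 2 partners FAN1 and SLX4, 2 genes were called higher and 0 lower at 24 h, and 1 higher and 1 lower at 6 h. FANCD2 (chromosome 3, 10026414 to 10101933) had 36.1, 37.4 and 35.3 CPM at 24 h, 33.1, 32.1 and 31.7 CPM at 6 h and 33.2, 32.3 and 31.2 CPM in control. The 24 h libraries lay above all others. FANCD2 was higher at 24 h by 0.17 (SE 0.044, edgeR adjusted p = 0.00565), stood at -0.0033 (adjusted p = 0.97) at 6 h and differed by 0.17 (SE 0.042, adjusted p = 0.00303) between 24 h and 6 h. With every library thinned to the smallest total, its values of 0.11 at 24 h and 0.12 between the times no longer passed. FANCI (chromosome 15, 89243945 to 89317262) had 109.7, 114 and 113 CPM at 24 h, 121, 120.0 and 121 CPM at 6 h and 115, 115 and 109 CPM in control.

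The 6 h libraries of FANCI lay above all others by a small margin, at 0.093 (SE 0.033, edgeR adjusted p = 0.0404) against control. The value turned to -0.047 with library size alone. The call was lost when any 1 of 6 libraries was left out (24 h library 2, all 6 h libraries, control libraries 1 and 3), at 0.075 to 0.11. Between 24 h and 6 h FANCI was lower, at -0.11 (SE 0.031, adjusted p = 0.00804), which turned to 0.11 and passed with library size alone and to 0.16 in the deposited table. At 24 h against control it stood at -0.015 (SE 0.032), or 0.42 in the deposited table, where it passed as higher. POLG overlaps FANCI on the other strand at 78.3 CPM and stood at -0.28 at 24 h and 0.17 at 6 h.

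FAN1, a nuclease that the marked pair recruits, was higher at 24 h by 0.22 (SE 0.051) and lower at 6 h, at -0.15 (SE 0.055), with 34.3 to 38.2 CPM at 24 h, 26.6 to 28.7 CPM at 6 h and 30.6 to 31.5 CPM in control. The 6 h call was lost when any 1 of 6 libraries was left out (24 h library 3, 6 h libraries 1 and 2, all control libraries), at -0.16 to -0.12, and turned to 0.0098 in the deposited table. SLX4, the scaffold for structure-specific nucleases, passed between 24 h and 6 h alone, at 0.19 (SE 0.054).

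Among the end resection genes NBN was high at 6 h and EXO1 at 24 h. Of 5 genes, 3 were higher at 24 h than in control, 0 were lower and 2 did not pass, and at 6 h 1 passed as higher, 2 as lower and 2 did not. NBN (chromosome 8, 89933331 to 90003229), the subunit that ties the MRE11 and RAD50 nuclease to checkpoint signalling, had 137, 136 and 134 CPM at 24 h, 247, 239.9 and 271 CPM at 6 h and 129, 129 and 124 CPM in control. The 6 h libraries stood far above all others. The fold change at 6 h was 1.99, or 0.99 on the log2 scale (SE 0.042, edgeR adjusted p = 2.78e-11), and -0.90 (SE 0.040, adjusted p = 4.54e-11) separated 24 h from 6 h. At 24 h against control it stood at 0.092 (SE 0.042, edgeR adjusted p = 0.0834), with all 24 h libraries above control, and it passed without 6 h library 3, at 0.091. It also passed with library size alone, at 0.17, in the deposited table, at 0.53, with 2 groups per fit and with no filter on low counts. DECR1 overlaps NBN on the other strand at 45.2 CPM and stood at 0.35 at 24 h and 0.52 at 6 h.

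The partners of NBN in the complex did not move with it. MRE11, the nuclease, had 52.4 to 54.8 CPM at 24 h, 40.0 to 45.6 CPM at 6 h and 46.5 to 47.0 CPM in control. It was higher at 24 h by 0.20 (SE 0.048) and stood at -0.14 (SE 0.052, edgeR adjusted p = 0.0521) at 6 h, where it passed without 6 h library 3, at -0.21. The 6 h value also passed with library size alone, at -0.28, with median-of-ratios scaling, with a minimum count of 30 and with thinned libraries. RAD50, the ATPase that bridges DNA ends, stood at 0.052 (SE 0.047) at 24 h and -0.072 (SE 0.049) at 6 h. Its difference of 0.12 (SE 0.045) between 24 h and 6 h passed, and was lost without 24 h library 1 or 3 or 6 h library 2, at 0.073 to 0.13.

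EXO1 (chromosome 1, 241847967 to 241895149), the exonuclease of long-range resection, had 85.0, 85.2 and 86.0 CPM at 24 h, 45.4, 46.3 and 48.8 CPM at 6 h and 53.8, 51.1 and 52.4 CPM in control. The 3 groups did not overlap, with 24 h highest and 6 h lowest. EXO1 rose 1.63-fold at 24 h, or 0.70 on the log2 scale (SE 0.037, edgeR adjusted p = 4.45e-10). At 6 h it was lower, at -0.16 (SE 0.041, edgeR adjusted p = 0.00788), a value that turned to 0.0024 in the deposited table. The difference between 24 h and 6 h, 0.86 (SE 0.037, adjusted p = 2.28e-11), was the highest of the 38 genes. RBBP8 (chromosome 18, 22798261 to 23026489), the gene of CtIP, which starts resection with MRE11, had 79.8, 85.3 and 80.6 CPM at 24 h, 66.4, 64.3 and 64.9 CPM at 6 h and 77.8, 76.6 and 70.2 CPM in control. Again the 6 h libraries were lowest and the 24 h libraries highest, without overlap. RBBP8 was lower at 6 h, at -0.20 (SE 0.044, edgeR adjusted p = 0.00214), and higher at 24 h, at 0.13 (SE 0.042, adjusted p = 0.0198). The 24 h call was lost without 24 h library 2 or control library 3, at 0.088 to 0.10. The difference between 24 h and 6 h was 0.33 (SE 0.041, adjusted p = 5.76e-06).

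The 3 RecQ helicases gave 1 higher and 1 lower call at 24 h, and 0 higher and 2 lower at 6 h. BLM (chromosome 15, 90717346 to 90816167), the helicase that dissolves double Holliday junctions, had 29.3, 30.1 and 31.4 CPM at 24 h, 20.6, 21.9 and 24.1 CPM at 6 h and 27.0, 26.0 and 24.4 CPM in control. It was higher at 24 h by 0.23 (SE 0.059, edgeR adjusted p = 0.00468) and lower at 6 h, at -0.20 (SE 0.064, adjusted p = 0.0262). The 6 h call was lost without 6 h library 1 or 2 or control library 1 or 2, at -0.19 to -0.15. The difference between 24 h and 6 h was 0.43 (SE 0.058, edgeR adjusted p = 1.23e-05). WRN, the Werner syndrome helicase, passed in no comparison, at -0.14 (SE 0.081) at 24 h and -0.13 (SE 0.085) at 6 h. Its value of -0.0038 between 24 h and 6 h turned to 0.21 with library size alone and then passed.

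RECQL4, a helicase with a role in replication origins, was lower than control at 24 h, at -0.15 (SE 0.044), and at 6 h, at -0.13 (SE 0.045), values that turned to 0.29 and 0.041 in the deposited table. The 24 h call was lost without control library 1, at -0.13. The 6 h call was lost when any 1 of 6 libraries was left out (all 24 h libraries, 6 h library 3, control libraries 1 and 3), at -0.13 to -0.065. Its difference of -0.019 between 24 h and 6 h passed without 6 h library 3, at -0.082, and turned to 0.20 and passed with library size alone.

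All 3 junction nucleases were lower at 24 h than in control, though their values were positive and not called in the deposited table. Their summed level was 106.75 to 109.38 CPM at 24 h, 125.63 to 134.1 CPM at 6 h and 131.77 to 136.09 CPM in control. MUS81 (chromosome 11, 65857126 to 65867654), which cuts replication and recombination intermediates, had 52.0, 54.3 and 55.5 CPM at 24 h, 63.6, 66.5 and 61.3 CPM at 6 h and 72.5, 68.9 and 70.1 CPM in control. The groups did not overlap and ran downward with time of exposure. MUS81 fell by 0.39 on the log2 scale at 24 h (SE 0.041, edgeR adjusted p = 1.44e-06), against a value of 0.051 in the deposited table. It was lower at 6 h, at -0.15 (SE 0.042, adjusted p = 0.0148), and between 24 h and 6 h, at -0.24 (SE 0.041, adjusted p = 0.000117), values that turned to 0.022 and 0.029 in the deposited table. The 6 h call was lost without 6 h library 3 or control library 1, at -0.13 to -0.11. CFL1, the cofilin gene, overlaps MUS81 on the other strand with a mean of 1445 CPM and stood at -0.14 at 24 h, 0.085 at 6 h and -0.22 between the times.

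EME1, the partner that MUS81 needs to cut, was lower at 24 h, at -0.20 (SE 0.063), or 0.22 in the deposited table, and lost the call without 24 h library 2 or control library 3, at -0.17 to -0.15. Its difference of -0.12 between 24 h and 6 h passed without 6 h library 1, at -0.16. LRRC59 overlaps EME1 on the other strand at 314 CPM and stood at -0.54 at 24 h. GEN1 (chromosome 2, 17753858 to 17788947), which resolves Holliday junctions on its own, had 38.8, 38.9 and 37.5 CPM at 24 h, 45.9, 49.9 and 51.1 CPM at 6 h and 45.9, 45.6 and 42.3 CPM in control. The 24 h libraries lay below all others. GEN1 was lower at 24 h, at -0.22 (SE 0.048, edgeR adjusted p = 0.00145), which turned to 0.22 in the deposited table. At 6 h it was higher by 0.14 (SE 0.049, edgeR adjusted p = 0.0353), a call lost without 6 h library 2 or 3 or control library 3, at 0.11 to 0.14. The difference between 24 h and 6 h was -0.36 (SE 0.046, adjusted p = 6.54e-06). SMC6 overlaps GEN1 on the other strand at 42.0 CPM and stood at -0.082 at 24 h and 0.21 at 6 h.

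Levels can be compared between genes only per length, here as CPM per kilobase of merged exons from the GENCODE 29 annotation. In control RECQL4 was highest at 32.0 ± 0.99 CPM per kb (SD, n = 3 here and below), followed by UBE2T at 26.0 ± 1.20 and NBN at 20.7 ± 0.524. RAD51B was lowest at 0.475 ± 0.0437, and FANCC and RAD51D, both at 1.72 CPM per kb, did not differ beyond their spread. NBN held 22.1 ± 0.326 CPM per kb at 24 h, 41.0 ± 2.61 at 6 h and 20.7 ± 0.524 in control, which made it the highest of the 38 genes at 6 h and not in the other groups. BRIP1 held 8.47 ± 0.425 CPM per kb at 24 h, 15.6 ± 1.07 at 6 h and 5.31 ± 0.0521 in control, where it ranked 19. The annotation of merged exons counts all isoforms of a gene, so a gene with long rare isoforms reads low on this scale.

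**Figure D3:**
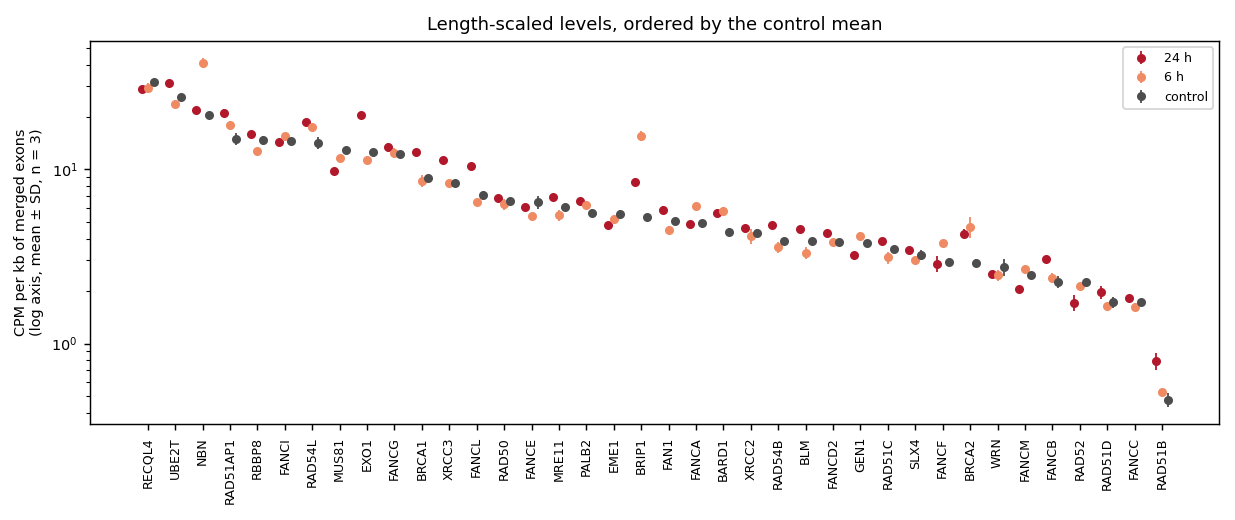
Level per length of each of the 38 genes (points, CPM per kilobase of merged exons on a log axis, mean ± SD, n = 3), ordered from left to right by the control mean, with 24 h left of 6 h left of control within a gene. Control means run from 32.0 for RECQL4 to 0.475 for RAD51B, and the 6 h points of NBN at 41.0 and BRIP1 at 15.6 stand well above their neighbours.

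Transcripts of replication and mitosis moved in the 24 h libraries as well. Of 22 genes on a list of S phase replication genes, 20 were higher at 24 h than in control and 2 were lower (20 and 0 in the deposited table), with a median log2 fold change of 0.46 and a summed level of 2997.2 to 3035.4 CPM at 24 h, 2229.5 to 2294.8 CPM at 6 h and 2245.1 to 2266.0 CPM in control. PCNA, the sliding clamp of DNA polymerases, rose by 0.73 (SE 0.033), and CCNE2, a G1/S cyclin, by 1.14 (SE 0.072). All 20 genes of a mitosis list were lower at 24 h, with TMM and with library size alone, against 5 lower and 0 higher in the deposited table, with a median of -0.54 and a summed level of 3345.9 to 3384.2 CPM at 24 h, 5000.1 to 5347.1 CPM at 6 h and 5125.5 to 5274.0 CPM in control. PLK1, a mitotic kinase, fell by 1.06 on the log2 scale (SE 0.031). At 6 h the S phase list had 2 higher and 3 lower, against 1 and 15 with library size alone and 1 and 0 in the deposited table. The mitosis list had 2 higher and 7 lower at 6 h, against 2 and 15 with library size alone and 2 and 0 in the deposited table. The part of a shift in cell cycle phase in the 24 h changes of the 38 genes was not tested.

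Genes of the same pathways outside the 38 were counted from a list of 49, of which 48 were tested. At 24 h 20 passed as higher, 6 as lower and 22 did not, with a median of 0.062, against 22, 6 and 10 of the 38. The deposited table gave 33 higher and 0 lower. At 6 h 8 passed as higher, 2 as lower and 38 did not, against 5 higher and 18 lower with library size alone and 5 and 0 in the deposited table. Over all genes 24.7% were called higher and 25.3% lower at 24 h, and 17.5% and 15.4% at 6 h. RMI2, a subunit of the complex in which BLM works, had 20.0 ± 0.841 CPM at 24 h, 18.2 ± 0.381 CPM at 6 h and 7.96 ± 0.461 CPM in control (SD, n = 3 each), and rose by 1.34 (SE 0.068) at 24 h and 1.19 (SE 0.072) at 6 h. SFR1, a recombinase mediator, had 17.7 ± 0.988 CPM at 24 h, 45.5 ± 1.92 CPM at 6 h and 20.9 ± 0.863 CPM in control, and it was lower at 24 h, at -0.24 (SE 0.061), which turned to 0.19 without a call in the deposited table, and higher at 6 h by 1.13 (SE 0.057). HELB, a helicase that limits resection, was higher at 6 h by 1.24 (SE 0.13). ABRAXAS1, the scaffold of a BRCA1 complex, was higher at 6 h by 0.62 (SE 0.073). Both HELB and ABRAXAS1 were lower at 24 h than at 6 h, at -0.94 (SE 0.12) and -0.66 (SE 0.067), and ABRAXAS1 lost this call in the deposited table, at -0.36.

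End joining, the route that competes with recombination for broken ends, was counted from a list of 22 genes of its enzymes and of the proteins that guard ends. At 24 h 5 passed as higher, 9 as lower and 8 did not, with a median of -0.031, against 12 higher and 0 lower and a median of 0.39 in the deposited table. At 6 h 5 passed as higher, 1 as lower and 16 did not, against 2 higher and 12 lower with library size alone and 2 and 0 in the deposited table. The shares over all genes were 24.7% higher and 25.3% lower at 24 h, and 17.5% and 15.4% at 6 h. DCLRE1C, the nuclease Artemis, stood at 0.051 (SE 0.065) at 24 h (0.47, which passed, in the deposited table) and rose by 1.09 (SE 0.063) at 6 h. PRKDC, the catalytic subunit of DNA-PK, fell by 0.69 on the log2 scale (SE 0.057) at 24 h, against -0.25 without a call in the deposited table. POLQ, the polymerase of microhomology-mediated joining, rose by 0.62 (SE 0.041) at 24 h.

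**Figure D4:**
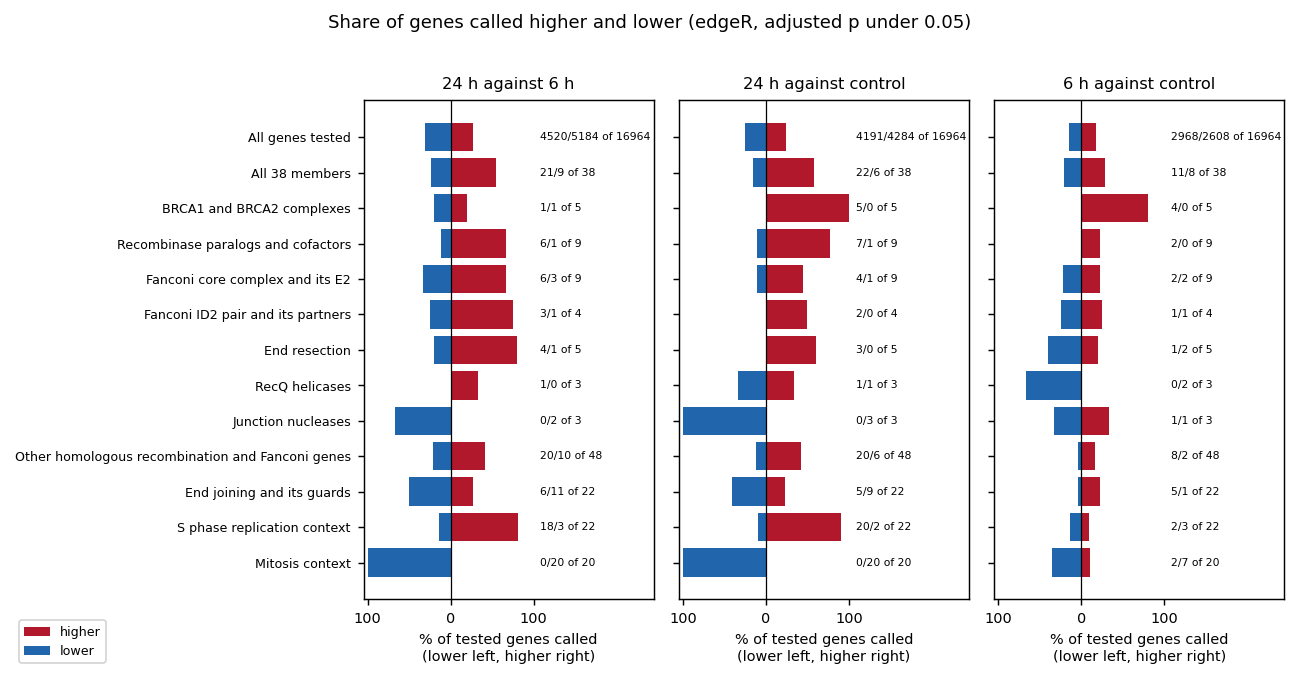
Share of tested genes called higher (red, to the right of 0) and lower (blue, to the left), in percent, for all genes, the 38 genes, their 7 roles and 4 further lists, in 24 h against 6 h, 24 h against control and 6 h against control; the numbers are genes higher, lower and tested. At 24 h against control 22 of 38 genes were higher beside 20 of 22 S phase genes, and 20 of 20 mitosis genes and 3 of 3 junction nucleases were lower.

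**Figure D5:**
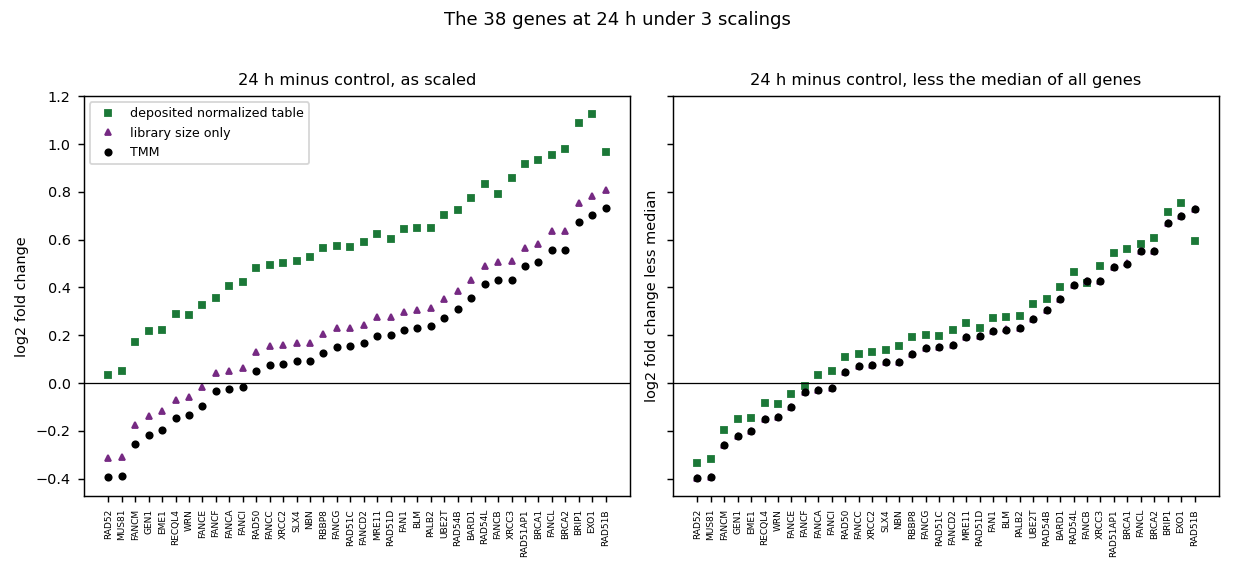
Log2 fold change of each of the 38 genes for 24 h minus control in the deposited normalized table (squares), with library size only (triangles) and with TMM (circles), as scaled on the left and after the median of all genes under the same scaling was taken off on the right. The deposited table lies above TMM by about its median of 0.37. The sets draw close once their medians of 0.37, 0.082 and 0.0048 are removed, with RAD51B farthest apart. The triangles on the right are hidden under the circles. This closeness follows from scaling all genes of a library by the same factor and is no test of the calls.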

How the data were processed

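RNA from 9 SUIT2 samples was sequenced. The submitters' processing notes name STAR 2.7.8a, Partek and the hg38 build, with annotation, counting and strand settings not given in the sources used here. Per gene, the authors deposited estimated counts, which were rounded to whole numbers, and a normalized signal table, in which each estimated count had 1e-04 added and was then multiplied by 1 factor per library. Genes were kept by edgeR's filter (minimum count 10, minimum total 15) and tested with edgeR's quasi-likelihood test in R on all 9 libraries in 1 model (TMM scaling, 6 residual degrees of freedom, Benjamini-Hochberg adjusted p under 0.05). The versions were R 4.3.3, edgeR 4.0.16, limma 3.58.1, DESeq2 1.42.0 and Python 3.11.15. SEs are absolute log2 fold changes over the root of the F statistic. In counts simulated for 6 h against control, the same steps called 64% of 50 genes changed 1.25-fold and 94% of 50 genes changed 2-fold, with 8 false calls among 16710 genes. The simulation gave every gene 1 common spread (a biological coefficient of variation of 0.0392) and changed only a small part of the genes. In the data 32.9% of genes were called at 6 h and the spread differed between groups. The simulated shares are therefore no error rates for the data.

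The members and lists were chosen with earlier results of these data known. Each of the 38 genes is named; values in every library are given for up to 4 called genes with the largest change per direction and comparison, and for BRCA1, BRCA2, FANCD2, FANCI and FANCM. RAD51AP1 was added after its values were seen. From the other lists some called genes are named, and they are not always those with the largest changes. At 24 h, for example, the largest rise on the end joining list, 0.84, and the largest fall on the S phase list, -0.63, belong to genes not named. Alternatives were DESeq2, limma-voom, other scalings and filters, thinning, a replicate block, fits of 2 groups, fits without each library in turn, a threshold of 0.01, and limma on log2(deposited signal + 1 or + 0.1).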

Additional observations from a re-analysis of the deposited data

Results flagged for a closer look

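Of the 38 genes, 6 were called in opposite directions at 24 h and at 6 h, each against the same control libraries, and the difference between 24 h and 6 h passed for each (edgeR, adjusted p under 0.05). EXO1 differed most, by 0.86 on the log2 scale, with 0.70 at 24 h and -0.16 at 6 h. BLM differed by 0.43, UBE2T by 0.41, FAN1 by 0.38 and RBBP8 by 0.33, all higher at 24 h and lower at 6 h. GEN1 ran the other way and differed by -0.36, with -0.22 at 24 h and 0.14 at 6 h. The share of all tested genes called in opposite directions was not counted. With 32.9% of all genes called at 6 h and 50.0% at 24 h, the 6 cannot be read as particular to this list. The deposited table did not bring the libraries to equal totals. In it the 6 h falls of EXO1, UBE2T and FAN1 and the 24 h fall of GEN1 changed sign. RBBP8, BLM and GEN1 lost their 6 h calls there, so the opposite directions depend on the scaling. They also depend on single libraries. In some fits without 1 library, BLM, UBE2T, FAN1 and GEN1 lost the 6 h call and RBBP8 the 24 h call, while EXO1 kept both. DESeq2 lost 6 h calls too, among them those of BLM, FAN1 and GEN1.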

How the results depend on the processing

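Of 77 called results for the 38 genes, 41 kept direction and call under all 21 alternatives and 59 in all 9 fits without 1 library. Among genes lower at 6 h, 8 became 5 with DESeq2, 21 with library size only, 5 with 2 groups per fit, 0 in the deposited table with either pseudocount and 3 at a threshold of 0.01. Genes higher at 6 h numbered 6 under library size only and also 6 in the deposited table with either pseudocount. Genes lower at 24 h than in control numbered 0 in the deposited table, and genes lower at 24 h than at 6 h numbered 5 under library size only and 2 in the deposited table. With 1 library left out, 19 to 23 genes were higher and 5 to 6 lower at 24 h, 8 to 11 and 3 to 7 at 6 h, and 18 to 21 and 9 to 11 between 24 h and 6 h.

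Among values called in at least 1 of the fits compared, signs turned with library size only for FANCI at 6 h (-0.047) and, between 24 h and 6 h, for BARD1 (0.16), FANCI (0.11), WRN (0.21) and RECQL4 (0.20). In the deposited table, with pseudocount 1 and then 0.1, they turned at 24 h for RAD52 (0.035, 0.039), FANCA (0.41, 0.41), FANCM (0.17, 0.18), FANCI (0.42, 0.43), RECQL4 (0.29, 0.29), MUS81 (0.051, 0.052), EME1 (0.22, 0.24) and GEN1 (0.22, 0.22). At 6 h they turned for UBE2T (0.031, 0.032), FAN1 (0.0098, 0.0096), EXO1 (0.0024, 0.0019), RECQL4 (0.041, 0.042), MUS81 (0.022, 0.022) and the median of the 38 genes (0.097, 0.10). Between 24 h and 6 h they turned for FANCI (0.16, 0.17) and MUS81 (0.029, 0.030). Values called in neither fit turned in 9 further cases under library size and in 23 under the deposited scaling. The scaling sets these signs, since each scaling moves the median of all genes.

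Over all genes, 4191 higher and 4284 lower at 24 h became 8575 and 321 in the deposited table. At 6 h, 2968 and 2608 became 1669 and 6192 with library size only and 1615 and 211 in the deposited table. Between 24 h and 6 h, 4520 and 5184 became 8229 and 2475 with library size only, and 975 were lower in the deposited table.

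Deviations of same-numbered libraries correlated at -0.059 to 0.021, and those of other pairs at -0.028 to 0.071, so no strong shift shared by number was seen. Whether same-numbered libraries shared a culture or day cannot be told from these values. With the replicate number as a block, 21 genes were higher and 6 lower at 24 h, 8 and 7 at 6 h, and 20 and 9 between 24 h and 6 h. FAN1, FANCI, GEN1 and PALB2 at 6 h, RAD51C at 24 h and FANCG between the times lost their calls, and no other call of the 38 genes was lost.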
